A study of Mus musculus with 18 samples.

Results

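Rab GTPases are small switch proteins of the Ras superfamily, and each member marks a set of intracellular membranes. The genes described here are the protein-coding genes of GENCODE M21, the mouse annotation on the mm10 genome build, whose symbol is Rab followed by a number and at most a single letter. This name rule found 59 genes among 21938 protein-coding genes. It used no measured value, and it leaves out Rab-like genes and genes of Rab partners whose symbols carry further letters. Chromatin accessibility at these genes was read from ATAC-seq, in which the Tn5 transposase inserts adapters into open DNA. The cells were bone marrow-derived macrophages (BMDMs), differentiated in culture from the marrow of wild type male C57/BL6 mice. Before stimulation, all cells, also the untreated ones, had spent 1 h with DMSO as the vehicle. The untreated group got nothing further, and the others received lipopolysaccharide (LPS, a Toll-like receptor ligand from bacteria) or the cytokine IL-4, both at 10 ng/mL, for 30 min, 1 h, 2 h or 4 h. There were 18 libraries in 9 groups of 2.

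A Rab protein cycles between a GTP-bound form on a membrane, where it recruits effectors such as tethers and motors, and a GDP-bound form that GDI (GDP dissociation inhibitor) keeps soluble. Guanine nucleotide exchange factors (GEFs) switch it on and GTPase-activating proteins (GAPs), mostly with a TBC domain, switch it off. In macrophages, a phagosome exchanges early endosomal Rab5 for late endosomal Rab7 as it matures towards fusion with lysosomes, while other members carry cytokines, receptors and antigen-presenting molecules to or from the cell surface.

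The deposited lists held 82391 reference peaks, 59617 extended regions and 84660 summits, each made by the authors from all libraries together. Every value below is therefore a property of a single catalog. No list had a column per library, so the effect of LPS, of IL-4 or of time on a Rab gene could not be tested, the replicates could not be compared, and the depth behind a value is unknown. A peak found in the cells of 1 group and a peak found in all of them look alike. Each summit carries a score, a whole number between 102 and 2781 with a median of 737, on a scale that is not stated. Scores were used to order summits and to give medians, and the size of a difference between scores has no known unit. As a check of the labelled cell type, all 10 macrophage marker genes examined (among them Spi1, Csf1r, Adgre1 and Cd68) had a peak within 1000 bp of a start site. Of 20 markers of other cell types, 8 had such a peak (Pecam1, Klrb1c, Ms4a1, Gfap, Kdr, Pax5, Col1a1 and Pdgfra), with a median score of 809.5, against 1587.5 for the macrophage markers. These are bulk libraries, in which a few cells with a very open site and many cells with a slightly open one cannot be told apart.

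A reference peak lay within 1000 bp of an annotated start site, hereafter a start site peak, in 49 of the 59 Rab genes. This is 83.1% (Wilson 95% interval 71.5 to 90.5, which covers only the number of genes counted), while 56.5% of all protein-coding genes had such a peak. More than 1 start site peak was found for 23 Rab genes, or 39.0%, beside 29.6% of all genes. The best summit score among the start site peaks of a Rab gene ran from 613 to 2415. Its median was 1505 (interquartile range 1153 to 2074), close to that of all 12402 genes with a start site peak (1456, 1071 to 1799). The upper part of the range was nevertheless well filled, since 14 of the 49 (28.6%) were in the top 10% of scores, and 8 (16.3%) were in the lowest 20%. Best summits were placed near the start, with a median distance of 48 bp against 66 bp, and 41 of 49 (83.7%) were within 100 bp of a start site against 65.4% of all genes. A start site peak was shared with the start of another protein-coding gene in 4 cases (8.16%, background 21.4%), namely Rab2b with Tox4, Rab6a with Mrpl48, Rab13 with Rps27 and Rab24 with Prelid1. For those 4 the peak cannot be assigned to either gene alone.

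**Figure D1:**
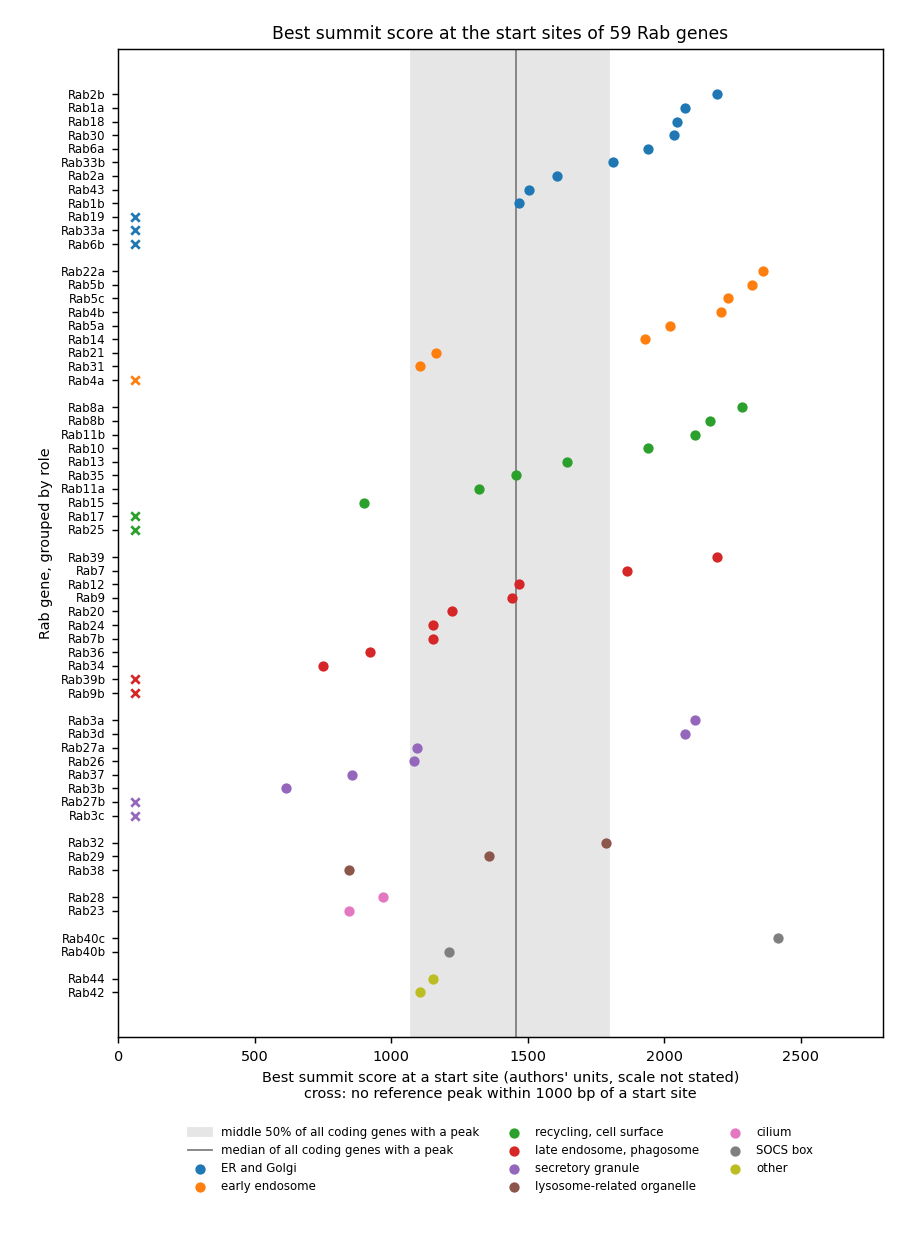
Best summit score at the start sites of each of the 59 Rab genes (x axis, the authors' units, scale not stated), grouped by role on the y axis. The grey band is the middle 50% of all coding genes with a peak (1071 to 1799), the line is their median (1456), and crosses are the 10 Rab genes without a peak. The Golgi genes with a peak all lie to the right of the line, and the secretory granule group spreads from 613 to 2114.

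The sequences around start site summits are shown for those Rab genes with a match to a motif of the lysosomal, cAMP, NF-kB or PU.1 type, as these are regulators named in macrophage or lysosome biology. They are mm10 plus strand letters from within 50 bp of the best summit, trimmed so that at most 30 bases of untranslated sequence remain. After trimming, the stretches of Rab24 and Rab32 lie beside the summit and do not contain it. Capitals mark the match: TCACGTGA (the E-box of the MiT family, to which the lysosomal regulators Tfeb and Mitf belong) in Rab5a, Rab21 and Rab24, TGACGTCA (the cAMP response element, CRE) as a further match in Rab5a, GAGGAAGT (PU.1/ETS) on the minus strand of Rab32, and an NF-kB site in Rab28. Rab2b also had a PU.1/ETS match, farther from its summit than the stretches printed here.
Rab5a, chr17:53479128-53479228: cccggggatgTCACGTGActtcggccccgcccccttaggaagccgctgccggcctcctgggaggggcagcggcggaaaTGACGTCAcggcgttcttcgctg
Rab21, chr10:115315565-115315660: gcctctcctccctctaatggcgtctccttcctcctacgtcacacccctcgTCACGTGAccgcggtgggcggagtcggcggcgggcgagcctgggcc
Rab24, chr13:55321966-55321995: gcccggTCACGTGAcgcgggcgccggaagt
Rab32, chr10:10558236-10558284: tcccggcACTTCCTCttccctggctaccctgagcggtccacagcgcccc
Rab28, chr5:41708128-41708225: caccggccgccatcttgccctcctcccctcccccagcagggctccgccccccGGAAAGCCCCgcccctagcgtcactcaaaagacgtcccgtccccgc

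Among the 12 genes of the endoplasmic reticulum (ER) and Golgi, 9 had a start site peak and all 9 scored above the median of all genes, from 1468 to 2193. In the whole family, 27 of the 49 genes with a peak scored above that median. The role groups are small, and a peak was present in 83.1% of all Rab genes and 56.5% of all coding genes. No difference between roles was tested. Rab1a (2074) and Rab1b (1468) act in transport from the ER to the Golgi, and Rab2a (1606) and Rab2b (2193) act between the same compartments. Rab6a, which drives retrograde Golgi transport, scored 1942. The Golgi proteins Rab30, Rab33b and Rab43 scored 2034, 1812 and 1505, and Rab18, found on lipid droplets and the ER, scored 2048. Rab43 had 5 start site peaks, the highest number in the family. Rab19, Rab33a and Rab6b had none.

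The early endosome group had the highest median of the larger groups (2113.5, 8 of 9 genes with a peak). The isoforms Rab5a, Rab5b and Rab5c, which control fusion of early endosomes, scored 2021, 2323 and 2232. Rab22a, also of early endosomes, scored 2362, the 2nd highest value in the family. Rab4b, of the fast recycling route, scored 2206 and Rab14, which acts between endosomes and the Golgi and is known from phagosomes, scored 1929. Rab21 (1164), involved in integrin uptake, and Rab31 (1106), a relative of Rab22a, lay near the lower quartile of all genes. Rab4a had no peak.

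For recycling and transport to the cell surface, 8 of 10 genes had a peak and the median was 1793. Rab8a (2284) and Rab8b (2166), which serve exocytic transport, were among the 10 best scores of the family. Rab11b (2114) scored above Rab11a (1320), both markers of the recycling endosome. Rab10 (1942) carries Toll-like receptor 4 to the macrophage surface, and Rab35 (1456) serves fast recycling. Rab13 (1644) is known from junctions of epithelia and Rab15 (900) from neurons. Rab17 and Rab25, known from epithelia, had none.

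The late endosome, autophagosome and phagosome group contained 11 genes, of which 9 had a peak (81.8%, Wilson 95% interval 52.3 to 94.9). The group median was 1224. Of the 9, 3 scored above the median of all genes, beside 27 of 49 in the whole family. These 3 were Rab39 (2193), of phagosome acidification, Rab7 (1864), of lysosome fusion, and Rab12 (1468), of transferrin receptor breakdown. Rab9, of the route from late endosomes to the Golgi, scored 1443. Rab20, described on maturing phagosomes, scored 1224. Rab7b, which acts between late endosomes and the Golgi, and Rab24, of autophagy, both scored 1153. Rab36 scored 923 and Rab34, involved in positioning lysosomes, 748. Rab39b and Rab9b had no peak.

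Secretory granule genes were divided. Of the 8, Rab3a (2114) and Rab3d (2074) were high, whereas Rab27a (1094), Rab26 (1082), Rab37 (856) and Rab3b (613, the lowest of the family) were low and Rab27b and Rab3c lacked a peak. CpG-rich starts, defined below, numbered 2 of 8 in this group (25%), beside 64.4% of all Rab genes and 46.0% of all coding genes. The lysosome-related organelle genes Rab32 (1786), Rab29 (1357) and Rab38 (845) all had a peak, as did the cilium genes Rab28 (968) and Rab23 (845). Rab40c, whose SOCS box recruits a ubiquitin ligase, had the highest score of all Rab genes (2415), with a best peak 985 bp wide. Its relative Rab40b scored 1212. Rab44 and Rab42, placed in no group, scored 1153 and 1106. Members with the lowest values were thus Rab3b, Rab34, Rab23, Rab38 and Rab37 (613 to 856).

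No start site peak was listed for 10 Rab genes. For 6 of them a reference peak lay no farther than 5000 bp from the most upstream start site. The nearest was at 1093 bp for Rab19, just outside the limit, at 2477 bp for Rab33a, at 2874 bp for Rab6b, at 2968 bp for Rab3c, at 3692 bp for Rab17 and at 4408 bp for Rab25. The other 4 were isolated by more than 20000 bp, with distances of 21822 bp for Rab4a, 43752 bp for Rab39b, 108077 bp for Rab9b and 278819 bp for Rab27b. Rab6b, Rab3c and Rab33a still had 4, 4 and 3 peaks inside the gene. On chromosome X, 1 of 4 Rab genes had a start site peak (Rab9, but not Rab9b, Rab33a or Rab39b), where the background for X was 36.1%. On the autosomes it was 48 of 55 (87.3%), beside 57.9% of autosomal coding genes.

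Of the 10 members without a peak, 8 have a close relative with one. A peak was present in 83.1% of all Rab genes, and no background over families of other genes was computed. In the 18 paralog families drawn up from the names and known relationships, 40 Rab genes were placed, and 10 families had a peak in every member. The other 8 were mixed, and each lacked the peak in 1 member. Rab4b had a peak and Rab4a did not, although both are early endosomal. The ubiquitous Rab6a had a peak while Rab6b, known as the brain form, did not. The same held for Rab27a against Rab27b, which both act in granule release, for Rab33b against Rab33a, for Rab9 against Rab9b and for Rab39 against Rab39b. In the Rab11 family, Rab11a and Rab11b had a peak and the epithelial Rab25 did not. In the Rab3 family of regulated exocytosis, Rab3c lacked a peak and the other members scored 2114 (Rab3a), 2074 (Rab3d) and 613 (Rab3b). In families with a peak in every member, the scores could lie on different sides of the median of all genes, as for Rab40c (2415) and Rab40b (1212) or Rab22a (2362) and Rab31 (1106). Rab8a, Rab8b and the 3 Rab5 genes all lay above the upper quartile of all genes.

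CpG content was computed from the genome, within 500 bp to each side of the most upstream start site. A start was called CpG-rich where the observed over expected CpG ratio reached 0.6, which held for 38 Rab genes (64.4%) and for 46.0% of all coding genes. Of the CpG-rich Rab genes, 35 (92.1%) had a start site peak, beside a background of 84.9% for CpG-rich genes. The exceptions were Rab4a, Rab6b and Rab39b, with ratios of 0.628, 0.756 and 0.752. Of the 21 CpG-poor Rab genes, 14 (66.7%) had a peak, beside a background of 32.4%. The median score was 1786 for the CpG-rich and 1129.5 for the CpG-poor Rab genes with a peak (1543 and 1236 over all genes). In the CpG-poor class, 4 genes still scored above the median of all genes: Rab5b (2323), Rab5c (2232), Rab18 (2048) and Rab30 (2034). Rab5b, Rab5c and Rab30 were near the limit, with ratios of 0.577, 0.560 and 0.595. The ratios of Rab18 (0.174), Rab37 (0.510) and Rab15 (0.731) refer to an upstream start that is not the one with the peak. With peaks at the most upstream start alone, 34 of 38 CpG-rich (89.5%) and 12 of 21 CpG-poor Rab genes (57.1%) had a peak, against 83.0% and 25.8% of all genes.

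**Figure D2:**
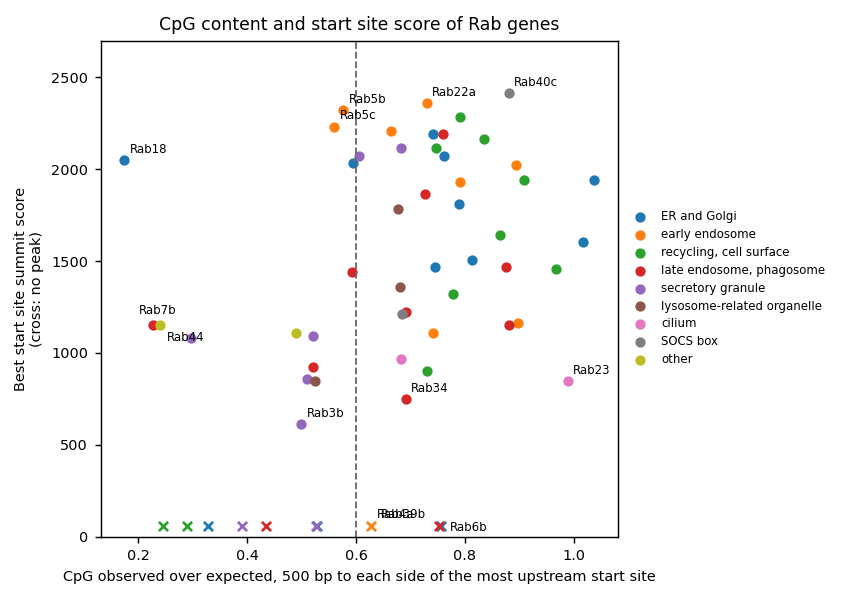
CpG observed over expected ratio at the most upstream start site (x axis) and best start site summit score (y axis, authors' units) of each Rab gene, coloured by role, with crosses for genes without a peak. The dashed line is the 0.6 limit. To its right 35 of 38 genes have a peak, and to its left 14 of 21.

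The annotation gave 244 distinct start sites for the 59 genes, and 176 of them (72.1%) had a reference peak within 1000 bp, against 48.8% of all coding start sites. For 3 genes the peak was at a downstream start and not at the most upstream one. The start site peak lay 62503 bp from the most upstream start in Rab37, 30908 bp in Rab18 and 8936 bp in Rab15. Rab15 had a peak at 1 of 8 start sites. The peak of Rab27a, a gene of granule docking, was offset as well, with its summit 562 bp from the nearest start.

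Peaks inside the gene and more than 1000 bp from all its start sites, termed gene-body peaks, were found in 36 Rab genes (61.0%), beside 39.9% of all coding genes. There were 153 in total, or 0.711 per 10 kb of gene against 0.333 over all genes. The Rab genes were also somewhat longer, with a median of 23207 bp against 17425 bp. Of the 153 summits, 134 were in introns, 17 in exon sequence outside coding sequence, 1 in a coding exon (of Rab6b) and 1 just outside the gene. Their median score was 791. The nearest coding gene was the Rab gene itself for 116 of the 153 (75.8%), against 84.0% of gene-body peaks over all coding genes. The distribution was uneven, since 4 genes held 64 of the peaks (41.8%) and 23 genes held none.

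Rab8b had the most gene-body peaks, 28 over 76024 bp or 3.68 per 10 kb, and only 87 coding genes of any length had more. All 28 summits were intronic, and 16 lay between 29.3 and 45.9 kb from the most upstream start. Their scores ran from 189 to 1942, with a median of 685.5. Rab8a, with 4 such peaks, differed from it in this respect despite their like start site scores. Of the 28 summits in Rab8b, 22 had Rab8b as the nearest coding gene. The other 6, some of them within the stretch of 16, were nearer to a start of Aph1c. Rab31 had 17 gene-body peaks with a higher median score (1025), of which 8 were between 32.3 and 48.3 kb. Of the 17, 13 were nearest to Rab31 and 4 to Txndc2. Rab37, a Rab of secretory granules, had 11, of which 2 were at the start of Cd300lf, an inhibitory receptor gene of myeloid cells that lies within Rab37. Measured from the summit, only 1 of the 11 had Rab37 as the nearest coding gene, and the other 10 were nearer to a start of Cd300lf or Slc9a3r1, so that they cannot be assigned to Rab37. Rab5c had 8 in 23207 bp (3.45 per 10 kb) and Rab10 had 6. Of the 8 in Rab5c, 3 were nearest to Hspb9, among them the best scored (1982). Rab7, Rab7b, Rab18, Rab20 and Rab32 had 5 each, which in the short gene Rab32 came to 3.77 per 10 kb. In all, 7 of the 153 gene-body peaks were at the start of another annotated gene, among them 2 of the 5 of Rab18, at the pseudogene AC131796.1.

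**Figure D3:**
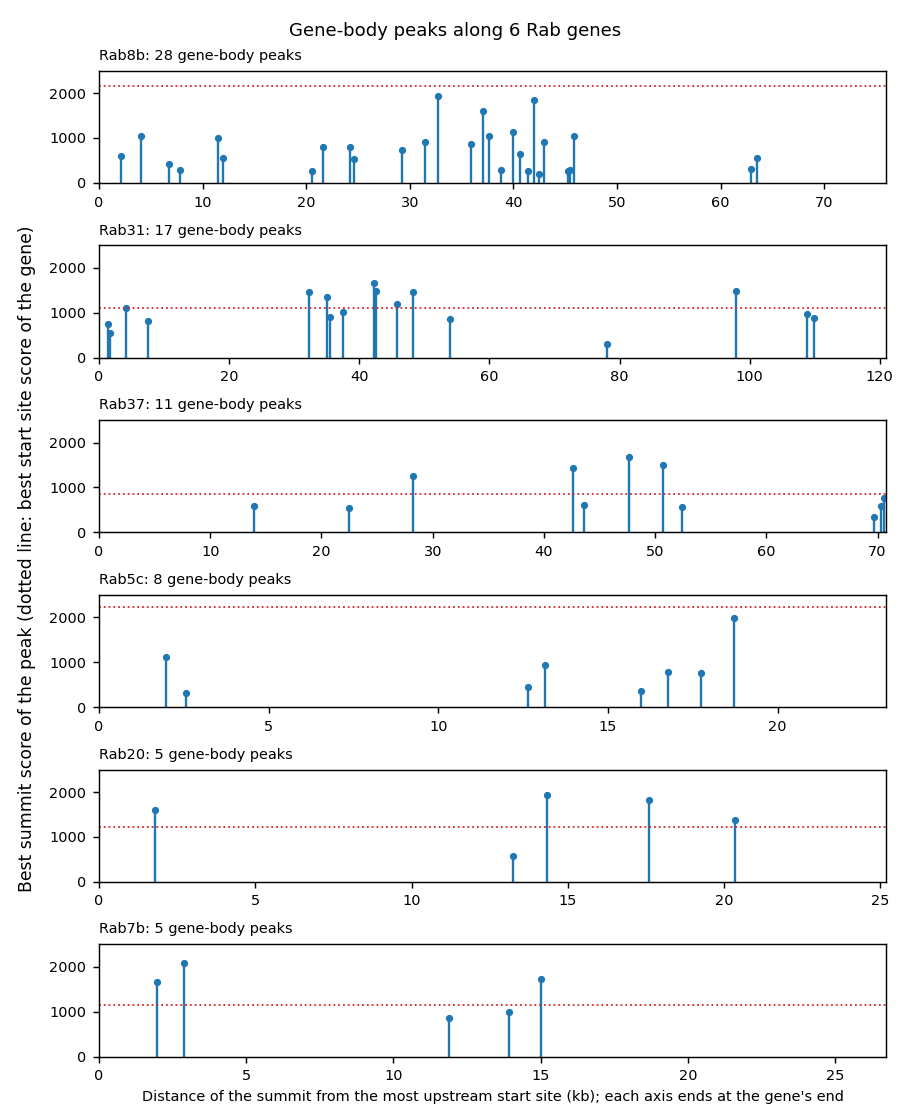
Gene-body peaks of 6 Rab genes, each drawn as a line at the distance of its summit from the most upstream start site (x axis, kb) with the summit score as its height (y axis, authors' units). The dotted line is the best start site score of the gene. In Rab8b and Rab5c all gene-body peaks stay below it, and in Rab31, Rab37, Rab20 and Rab7b some rise above it.

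In 33 Rab genes with both kinds of peak, the best gene-body score exceeded the best start site score in 11 (33.3%), beside a background of 28.3%. Rab7b reached 2087 at 2881 bp downstream, against 1153 at its start. Rab20 reached 1942 in its intron against 1224, and 4 of its 5 gene-body peaks scored at or above the median of all summits. Rab31 reached 1657 against 1106. Rab37 held a peak of 1670 against 856, but that summit was nearer to Cd300lf. The pair of values was 1877 and 1456 for Rab35, 1606 and 1468 for Rab12, 1248 and 1094 for Rab27a, 945 and 613 for Rab3b, 1531 and 1505 for Rab43, and 1212 and 1164 for Rab21. In Rab26 the gene-body value of 2087 belongs to a peak at the starts of Traf7 and Rab26os, and in Rab43 the value of 1531 belongs to a peak at the start of 9930120I10Rik. Both genes are among the 11 only through these peaks, as Rab26 had no other gene-body peak and that of Rab43 scored 780. In Rab20 1 of the 5 peaks is at the start of E230013L22Rik.

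Sequence around the summit is shown for 5 of the genes rich in gene-body peaks, chosen after their values were seen, because each carries a motif of a macrophage or stimulus-dependent factor within 50 bp of the summit. Capitals mark TGAGTCA (AP-1, on the minus strand in Rab5c), GAGGAAGT (PU.1/ETS) in Rab31 and Rab7b and an NF-kB site in Rab20. All are mm10 plus strand letters, and all 5 windows are intronic.
Rab8b, chr9:66886950-66887050: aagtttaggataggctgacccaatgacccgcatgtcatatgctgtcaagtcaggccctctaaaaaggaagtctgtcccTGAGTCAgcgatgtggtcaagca
Rab5c, chr11:100719452-100719552: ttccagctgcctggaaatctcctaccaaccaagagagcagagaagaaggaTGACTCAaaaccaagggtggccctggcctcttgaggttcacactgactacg
Rab31, chr17:65674740-65674840: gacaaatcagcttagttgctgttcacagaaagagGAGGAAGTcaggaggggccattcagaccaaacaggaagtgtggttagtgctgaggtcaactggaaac
Rab7b, chr1:131700544-131700644: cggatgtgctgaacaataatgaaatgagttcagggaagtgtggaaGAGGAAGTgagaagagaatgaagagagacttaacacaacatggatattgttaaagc
Rab20, chr8:11461056-11461156: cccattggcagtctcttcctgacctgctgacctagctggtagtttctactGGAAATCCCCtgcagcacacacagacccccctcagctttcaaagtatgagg

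The Rab8b and Rab5c windows are at the best gene-body summits of these genes (1942 and 1982), and the Rab20 window is at a summit of 1812. Those of Rab31 and Rab7b have scores of 1493 and 856. The Rab5c and Rab31 windows lie in these genes, but their nearest coding start sites are those of Hspb9 and Txndc2. An AP-1 match within 100 bp was found for 4 of 28 gene-body summits of Rab8b, 4 of 8 of Rab5c and 5 of 17 of Rab31, against 31 of 153 (20.3%) in all Rab genes and 18.9% of the 34519 gene-body peaks of all coding genes. In Rab5c, 3 of the 4 summits with AP-1 were those nearest to Hspb9. A PU.1/ETS match was found for 1 of 28 in Rab8b, 2 of 8 in Rab5c and 6 of 17 in Rab31, against 21 of 153 (13.7%) in all Rab genes and 10.7% over all coding genes. Either motif was found in 5 of 28 peaks of Rab8b, 11 of 17 of Rab31, 3 of 11 of Rab37, 6 of 8 of Rab5c, 4 of 5 of Rab7b and 1 of 5 of Rab20, against 51 of 153 (33.3%) in all and 28.3% over all coding genes.

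The extended regions, which are the authors' wider elements around joined peaks, were counted within 50000 bp to each side of the most upstream start. The median was 6 per Rab gene (interquartile range 4 to 9, from 0 to 15) and 4 per coding gene (1 to 8). Rab37 had 15, Rab14 had 14 and Rab7, Rab8b, Rab3a and Rab5c had 13 each. At the other end, Rab27b and Rab9b had 0, Rab39b and Rab3c had 1, and Rab15, Rab28 and Rab38 had 2. Of the 391 regions counted in these windows, 171 (43.7%) had the Rab gene as their nearest coding gene, and the others were nearer to a neighbouring gene. Of the 15 regions of Rab37, 3 were nearest to it, and of the 13 of Rab5c, 4 were. Rab3a had 13 regions in its window of which 2 were nearest to it, Rab25 had 10 with 0, and Rab19 had 12 with 1. Rab7, Rab8b and Rab31 were different, with 9 of 13, 9 of 13 and 9 of 12 nearest to them.

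With distance left free, 191 regions had a Rab gene as the nearest coding gene, and 131 of these (68.6%) were distal, that is with their best summit over 1000 bp from any annotated start site. The share over all regions was 75.0%. Distal regions were concentrated on Rab31 (9) and on Rab7, Rab8b and Rab10 (8 each), followed by Rab2a, Rab14, Rab18 and Rab20 (5 each), and 18 Rab genes had none. In Rab20, 1 of the 5 is a wide region that also holds the start site peak of the gene, and it is distal only by its best summit. The mean was 2.22 per Rab gene and 2.04 per coding gene. The median best score of the 131 was 802 (interquartile range 519.5 to 1176.5) against 716 (495 to 1082) for all 44701 distal regions.

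Each motif was looked for on either strand, up to 100 bp from the best summit of a start site or distal region. A match is a description of the letters and does not show that a factor was bound. At start sites, the GC-box GGGGCGGGG (SP/KLF) was the most frequent, in 12 of 49 Rab genes (24.5%) and 19.1% of all genes with a peak. The 12 were Rab3b, Rab3d, Rab5a, Rab8b, Rab9, Rab20, Rab26, Rab28, Rab30, Rab33b, Rab35 and Rab40c. TTGCNNAA (C/EBP) was present in 5 (10.2% against 5.77%): Rab1b, Rab7b, Rab30, Rab40b and Rab44. CCGGAAGT (ETS) was present in 4 (8.16% against 7.54%): Rab2a, Rab11a, Rab24 and Rab36. The ETS and PU.1/ETS strings end in the same 6 letters but cannot match at the same place. TCACGTGA (MiT E-box) was found in 3 (6.12% against 1.80%), those printed above, and AAGATGGCG (YY1) in 3 (6.12% against 2.48%): Rab13, Rab22a and Rab28. A STAT6-type site (TTC and GAA with 4 bases between) was found in Rab5b, Rab11b and Rab15 (6.12% against 3.30%). Apart from SP/KLF, each of these shares rests on 3 to 5 of the 49 genes. PU.1/ETS was found in Rab2b and Rab32 (4.08% against 3.97%). Among start sites of Rab genes, 4 motifs had a single match each (2.04%), and all 4 were more frequent over all genes. These were AP-1 in Rab34 (4.67% of all genes), CRE in Rab5a (3.43%), NF-kB in Rab28 (4.11%) and TGCGCATGC (NRF1) in Rab23 (2.39%). TGTGGTTT (RUNX) and the IRF site (GAAA repeated after 2 bases) had 0 matches in 49, against 0.919% and 2.19% of all genes.

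In the 131 distal regions the order was different. AP-1 led with 18.3%, below the 20.5% of all distal regions. PU.1/ETS followed with 14.5% (11.6%) and C/EBP with 13.0% (13.3%). NF-kB and STAT6-type sites each occurred in 6.87% (5.66% and 7.88%), IRF in 4.58% (4.07%) and RUNX in 2.29% (4.28%). SP/KLF and ETS were each found in 1 region (0.763%), and the MiT E-box in 0 of 131. These motifs were also rare over all distal regions (0.984%, 0.515% and 0.268%).

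**Figure D4:**
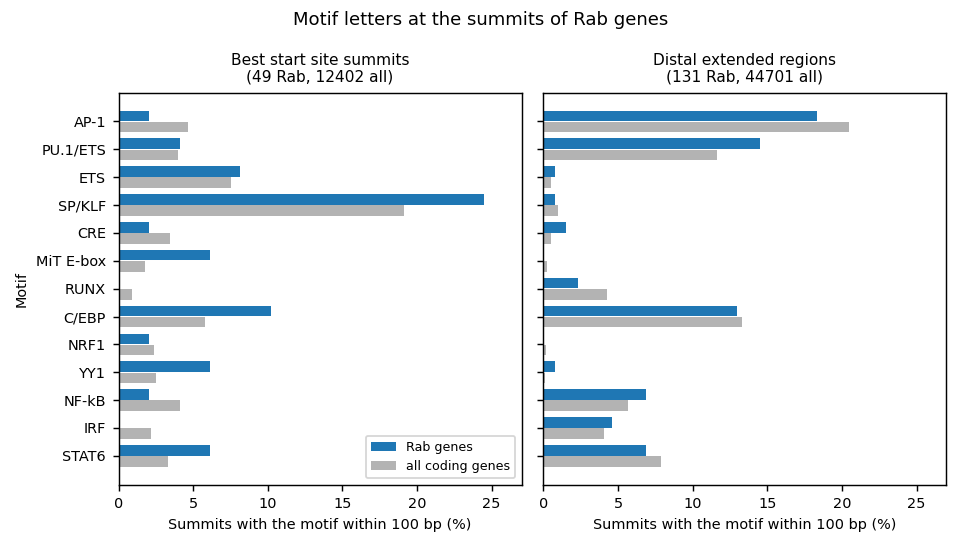
Percent of summits with a motif within 100 bp (x axis) for each motif (y axis), at start sites on the left and in distal regions on the right, for Rab genes (blue) and for all coding genes or regions (grey). SP/KLF leads at start sites (24.5% and 19.1%), and AP-1 leads in distal regions (18.3% and 20.5%).

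The proteins that act on Rabs were examined as 4 lists taken from general knowledge, which may not hold every such gene. Start site peaks were present in 116 of 125 partner genes (92.8%, background 56.5%). Of the 125, 68.8% had a CpG-rich start, a class with a background of 84.9%. In 14 of the 116 (12.1%) the peak was shared with the start of another coding gene. All 10 genes of the membrane cycle, such as the GDI and escort protein genes, had a peak, with the highest scores at Chml (2388), an escort protein, Yif1a (2034) and Rabac1 (1747). All 30 GEF genes had one, led by Dennd4b (2245), Rabgef1 (2153), which activates Rab5, and Dennd4a (2127). All 34 GAP genes had one, led by Tbc1d14 (2284), Tbc1d23 (2153) and Evi5l (2127). Effectors were less complete, with 42 of 51 (82.4%). Eea1 (2206), the early endosome tether of Rab5, scored highest, followed by the Golgi tethers Golga2 (2179) and Uso1 (2074). The 9 effector genes without a peak were Sytl1, Sytl2, Sytl4, Sytl5 and Myrip, which bind Rab27, Rims1 and Rims2, which bind Rab3 at synapses, and Rab11fip4 and Myo5b, which act with Rab11. Other listed effectors of Rab27 or Rab3 had a peak, namely Unc13d (1164), Myo5a (1141), Rph3a (802), Sytl3 (613) and Mlph (341). The Rab11 effector genes Rab11fip1 (1594), Rab11fip5 (1518), Rab11fip2 (1013) and Rab11fip3 (780) had one too.

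Among other small GTPases, start site peaks were present in 25 of 28 Arf family genes (89.3%), which act in coat assembly and membrane traffic, and in 21 of 25 Ras family genes (84.0%), which act in growth signalling. The median scores were 1786 and 1153. With 83.1%, the Rab share was near that of these families, and no difference between families was tested.

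**Figure D5:**
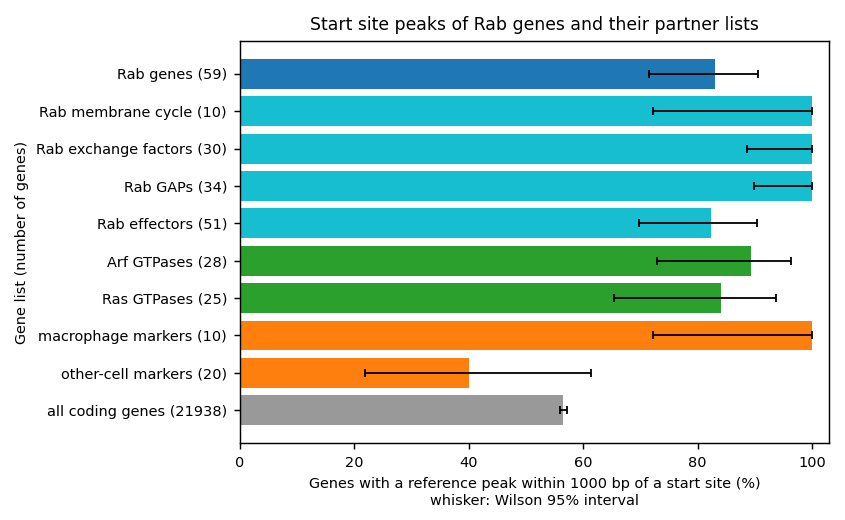
Percent of genes with a start site peak (x axis) in each gene list (y axis, with the number of genes), with Wilson 95% intervals as whiskers. The Rab genes stand at 83.1%, the membrane cycle, GEF and GAP lists at 100%, the effectors at 82.4% and all coding genes at 56.5%.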

How the data were processed

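ATAC-seq libraries of BMDMs were sequenced by the authors as single-end reads. Per the study's methods, adapters were removed with BBDuk, and reads were trimmed (Trimmomatic 0.39), placed on mm10 with the mapping step of ShortStack and filtered (SAMtools 1.9). Peaks were called with MACS2 2.2.6 with duplicate reads kept, so heights can include PCR copies, and no shift towards the Tn5 cut is named. The authors kept peaks called in each sample or replicate under a strict q-value limit that also overlapped between replicates by a set minimum share. A weaker opening is thus not listed. The kept peaks were pooled into 3 BED lists. The deposited summit score has no stated scale, and the other lists hold positions only. No columns of other samples were present (0).

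Here, peaks were intersected with GENCODE M21 genes (overlap of at least 1 bp, start site window 1000 bp, gene window 50000 bp), and sequence came from GRCm38.p6, whose primary chromosomes have mm10 coordinates, counted from 1. CpG windows were 500 bp to each side and motif windows 100 bp. Python 3.11.15, pandas 2.3.3, SciPy 1.17.1, pysam 0.24.0 and matplotlib 3.10.9 were used, and the overlap code was tested on simulated data. Groups came from the labels, but with pooled lists no test between groups, no precision per library and no comparison of replicates was possible. Shares over genes carry Wilson 95% intervals, and all coding genes served as background.

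The text names all Rab genes without a start site peak, the 10 highest and 5 lowest scores, the 10 genes richest in gene-body peaks, the 5 with most and fewest regions (ties included), mixed paralog families, partner genes that lacked a peak and the 3 best scored of each partner list. Other members are named to account for the whole family, and further values were chosen after they were seen. Members, roles, families and lists were chosen from names and general knowledge with earlier results of these data known. Alternatives comprised other windows, start site sets and score limits. A comparison of protein sequences was not made here, and 1 planned comparison list is not reported here.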

Additional observations from a re-analysis of the deposited data

How the results depend on the processing

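Of 26 alternatives for 8 results, 21 stayed within 1.5 times the count, or within the 95% interval of the share or median. The 26 include settings added after the data were seen, all of which stayed within these limits. For the 49 Rab genes with a start site peak, 1.5 times the count lies above all 59, so only a loss could pass the limit. The number of Rab genes with a start site peak was 46 to 52. With a window of 2500 bp, Rab19, Rab33a and Rab3c gained a peak. With the most upstream start alone, Rab15, Rab18 and Rab37 lost it, and with summits at or above the median score alone, Rab3b lost it. The median score was 1505 to 1606. Gene-body peaks numbered 83 with summits at or above the median score alone. Regions summed over the Rab windows were 199 within 20000 bp and 741 within 100000 bp, and the mean per gene was 1.48 and 1.36 times that of all coding genes (1.34 at 50000 bp). Within 50 bp of the summit, AP-1 was found in 11.5% of distal Rab regions (15.2% of all) and SP/KLF at 12.2% of Rab start sites (11.6% of all). Within 200 bp the shares were 19.8% (23.6%) and 34.7% (24.9%), so the gap between Rab genes and all genes for SP/KLF widened with the window. Under settings added after the data were seen, mixed paralog families numbered 6 to 9 and CpG-rich Rab genes with a peak at the most upstream start 34. No paired analysis was possible because the lists are pooled and carry no library columns, and for the same reason no replicate could be left out. Depth, the number of libraries behind a peak and transcription of the genes are unknown from these lists.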
